A study of Mus musculus with 6 samples.

Results

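The 10 genes Nos2, Tnf, Il1b, Cd80, Cd86, Cd40, Cd38, Irf5, Irf8 and Marcks, which mark the M1 type of macrophage activation, were followed in mouse liver. They were found by gene name on an expression array, and all 10 were present among the 37074 gene names it carries. Together they are read by 22 probes. The livers came from nude mice, which lack a thymus and therefore most mature T cells, and both groups share that background. The sEV group received small extracellular vesicles (sEVs) of SW620 cells, an established human line from a colorectal tumour, through the tail vein, 20 µg at each of 10 injections over 21 days. The control group received PBS on the same schedule. Each group held 5 mice, and 3 livers per group were arrayed, 1 liver per array.

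Macrophages exposed to bacterial lipopolysaccharide (LPS) and interferon gamma take up a state called M1, in which they secrete inflammatory cytokines, make nitric oxide and present antigen with costimulatory molecules. Toll-like receptors and the interferon receptor start the response, NF-kappaB and interferon regulatory factors (IRFs) carry it to the nucleus, and cytokines, enzymes and surface molecules are its output. In liver the resident macrophages are Kupffer cells, which line the sinusoids beside monocytes that arrive from blood. In bulk liver RNA, more cells of a type and more RNA per cell cannot be told apart.

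None of the 9 members that could be tested differed between sEV and control livers past the threshold of an adjusted p of 0.05 (limma, Benjamini-Hochberg over 19447 genes). Over all genes the same test called 16.9%, of which 8.82% of all genes tested were higher in sEV livers and 8.11% lower. Before adjustment 2 of the 9 members, Tnf and Irf8, had a p under 0.05, as did 33.6% of all genes. On their brightest probes 6 members had positive log2 fold changes (sEV minus control) and 3 had negative ones, with a median of 0.25 against 0.02 for all genes tested. When every probe was fitted on its own, 2 of 16 member probes passed, where 14.1% of all probes passed and 6.7% were lower. Both were lower in sEV livers, and each was designed on a sequence other than the RefSeq transcript: one is an Irf5 probe and the other a Cd86 probe. Of 125 measured genes in lists read around the members, 33 were called higher and 7 lower. Irak3, Il1r1, Irf1 and Slc7a2 were among those called higher, though Irak3 was well above background on just 1 control array.

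The probes on which these results turn are given here by the first 30 of their 60 bases, read from the scanner files 5′ to 3′, with their mm9 positions. All letters are lower case because no motif was marked. The first Irf5 probe, at chr6:29486901-29486960 (plus strand), and the Irf8 probe, at chr8:123280324-123280383 (plus strand), carry RefSeq transcripts. The second Irf5 probe, at chr6:29491799-29491858 (plus strand), was designed on a cDNA clone and starts 4898 bases downstream. The first Cd86 probe, at chr16:36603961-36604020 (minus strand), carries the RefSeq transcript. The second, at chr16:36660860-36660919 (minus strand), was designed on an Ensembl transcript and starts 56899 bases away, on the upstream side of the gene. Whether each lies in an exon, an intron or a UTR was not determined, because no annotation of the mm9 build was used here.
Irf5 A_51_P346668: cagagtcggggtaacaagaacatagaagag
Irf5 A_55_P2739057: agaggtttctgattgtgggacacagtctgg
Cd86 A_55_P1971951: ctggccagttaccaacatgttctgtacaga
Cd86 A_55_P2715366: tggatgggtcaaacataactagaatcgtag
Irf8 A_52_P354823: aacagacagggtcgacagagtgtgtgatac

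Levels are normalised log2 signals, the log2 processed signal minus the 75th percentile of the array, so 0 is the array's upper quartile and each unit is a doubling. They compare livers for 1 probe and do not rank probes against each other. Of the 22 probes, 14 were well above background on all 6 arrays, 16 on at least 3, 18 on at least 1 and 4 on none. The share of spots well above background was close between groups, 49.9 to 53.3% on the sEV arrays and 50.9 to 54.7% on the control arrays. The 75th percentile of signal, used for scaling, did not overlap. It was 402 to 424 on the sEV arrays and 440 to 506 on the control arrays. All arrays shared 1 slide and 1 scan. Row 1 of the slide held all 3 control livers and sEV liver 1, and row 2 held sEV livers 2 and 3. With the slide row as a block, or within row 1, a change is therefore sEV liver 1 minus the mean of the 3 control livers. Such a value rests on 1 treated liver and cannot tell an effect of the row from differences between sEV livers. Array profiles correlated at 0.991 to 0.995 within groups and 0.975 to 0.984 between them, across probes, which are not independent. Albumin, the liver's main secreted protein, differed by 0.15 (adjusted p = 0.516), and Actb and Gapdh by -0.07 and 0.15. Albumin and Gapdh turned negative, -0.16 and -0.12, under quantile normalization.

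**Figure D1:**
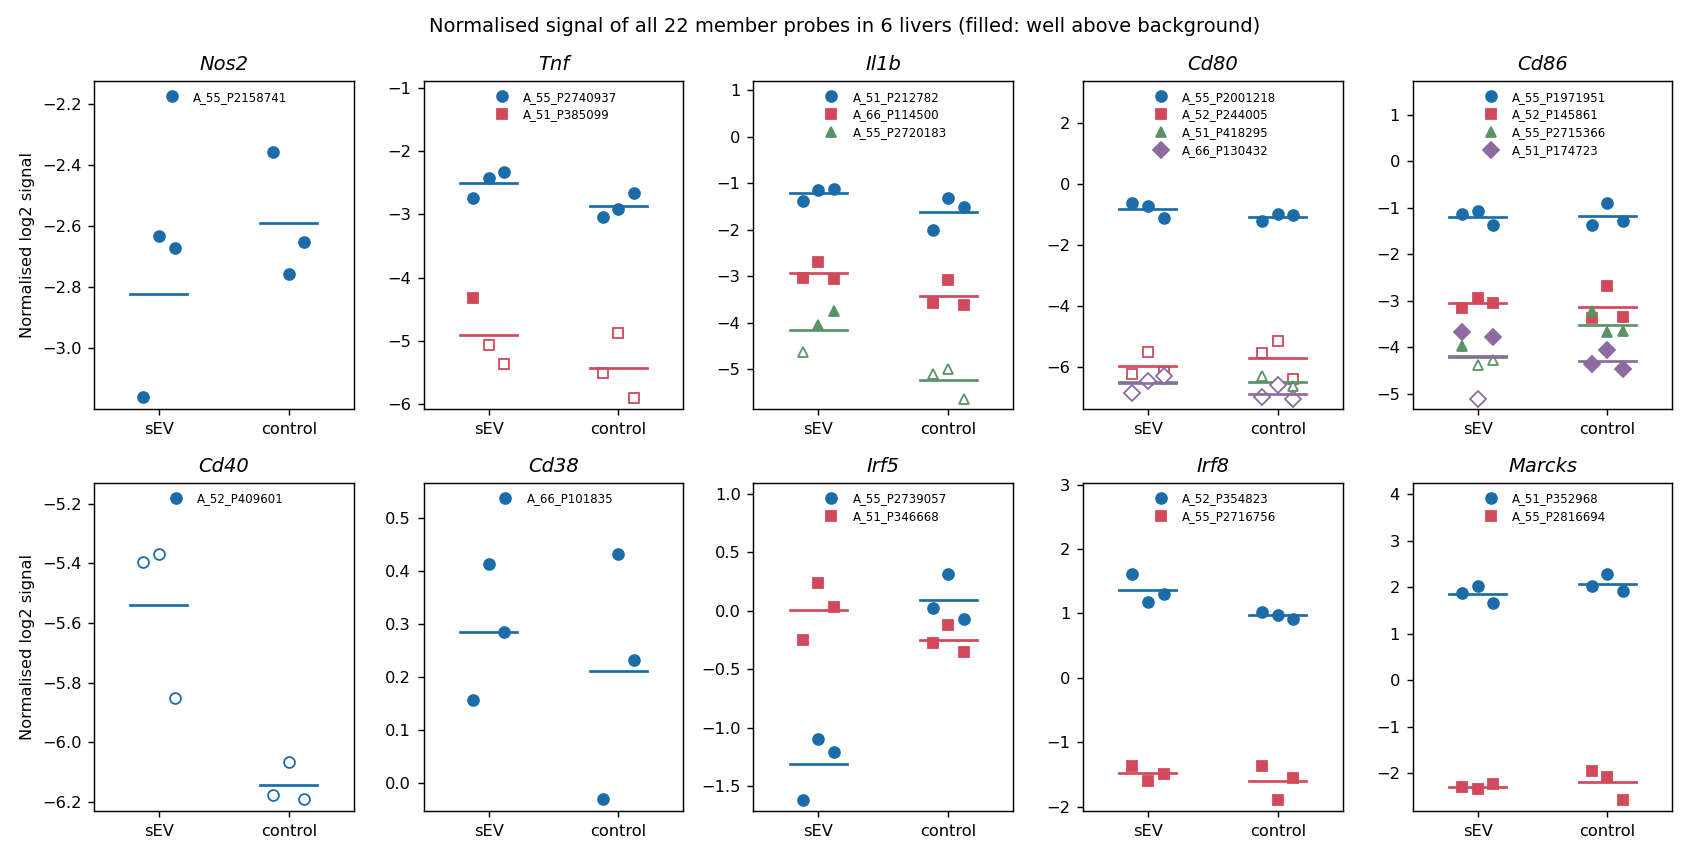
Normalised log2 signal (vertical axis) of every probe of the 10 M1-type genes in each liver, 1 panel per gene, sEV livers left of control livers. Points are livers, bars are group means, and filled points were well above background. The Irf5 probe A_55_P2739057 lies between -1.62 and -1.10 in sEV livers and between -0.07 and 0.32 in control livers, while the brightest probes of the 9 members above background overlap between groups except for Irf8.

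The cytokines and the enzyme of the response come first. Tnf encodes tumour necrosis factor, an early cytokine of the response. Its probe A_55_P2740937 (chr17:35336967-35337026, minus strand) read -2.74, -2.43 and -2.33 in sEV livers, against -3.04, -2.92 and -2.65 in control livers. Liver sEV 1 lay below control liver 3, so the groups overlapped. The log2 fold change was 0.37 ± 0.15 (SE, n = 3 per group; 95% interval 0.01 to 0.73). Its limma p was 0.0474 before adjustment and 0.144 after. The change was 0.13 with the slide row as a block, which leaves sEV liver 1 alone. The second Tnf probe, 172 bases away, was well above background on 1 sEV array and 0 control arrays and is given no fold.

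Il1b encodes interleukin 1 beta, which the inflammasome cuts to its active form. On its brightest probe, A_51_P212782 (chr2:129190347-129190406, minus strand), sEV livers had -1.38, -1.14 and -1.12 and control livers -2.01, -1.31 and -1.52. Control liver 1 was the lowest of the 6, and the groups overlapped by sEV liver 1. The log2 fold change was 0.40 ± 0.19 (95% interval -0.06 to 0.86; limma adjusted p = 0.194). It was 0.23 with the slide row as a block and 0.20 without control liver 1. Probe A_66_P114500, 533 bases away, gave a log2 fold change of 0.50 ± 0.18 with groups that did not overlap (sEV higher, as for 21.9% of all probes), and also missed the threshold (limma adjusted p = 0.121). It had -3.04, -2.69 and -3.06 in sEV livers and -3.57, -3.08 and -3.63 in control livers. The remaining Il1b probe, designed on an Ensembl transcript 5118 bases from the first, was well above background on 2 sEV arrays and 0 control arrays. It had -4.64, -4.05 and -3.76 in sEV livers, against -5.10, -4.99 and -5.63 in control livers. Liver sEV 1 did not clear background either, so no fold is given, and the probe was not tested.

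Nos2 encodes inducible nitric oxide synthase, which makes nitric oxide from arginine. Its single probe (chr11:78773567-78773626, plus strand) read -3.16, -2.63 and -2.67 in sEV livers, against -2.36, -2.76 and -2.65 in control livers. Liver sEV 1 was the lowest and control liver 1 the highest, and the other 4 lay within a narrow band. The log2 fold change was -0.23 ± 0.18 (95% interval -0.66 to 0.20; limma adjusted p = 0.404). With the slide row as a block, from sEV liver 1 alone, it was -0.57, and with normexp it was -0.0059.

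The surface molecules follow. Cd80 and Cd86 are the B7 ligands that bind CD28 and CTLA4 on T cells, Cd40 is the TNF-family receptor through which T cells activate macrophages, and Cd38 is an ectoenzyme that consumes NAD. Cd80 was read by 4 probes, of which 3 were well above background on 0 arrays. The remaining one, A_55_P2001218 (chr16:38486772-38486831, plus strand), had -0.64, -0.74 and -1.13 in sEV livers, against -1.24, -0.98 and -1.04 in control livers. Livers sEV 1 and sEV 2 were above every control, and sEV 3 lay among the controls. The log2 fold change was 0.25 ± 0.15 (95% interval -0.11 to 0.61, limma adjusted p = 0.293), and 0.45 with the slide row as a block.

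Cd86 had 4 probes past the filter. The brightest, A_55_P1971951, read -1.13, -1.08 and -1.37 in sEV livers and -1.38, -0.90 and -1.28 in control livers. The groups were interleaved, and the log2 fold change was -0.01 ± 0.15 (95% interval -0.37 to 0.36; limma adjusted p = 0.979). A_52_P145861, 545 bases away, gave 0.09 (adjusted p = 0.795), and A_51_P174723 gave 0.11 ± 0.39. The Ensembl transcript probe A_55_P2715366 read -3.98, -4.39 and -4.28 in sEV livers, against -3.22, -3.68 and -3.66 in control livers. Every sEV liver was below every control liver, as for 16.9% of all probes, and the signal was well above background on 1 sEV array and 3 control arrays. The difference was -0.70 ± 0.17 on the log2 scale (limma adjusted p over probes = 0.0430). It is measured against sEV signals of which 2 were near background, and the probe passed the filter mainly through the control arrays, where it is higher. The exact two-sided permutation p was 0.1, the smallest that 3 against 3 allows.

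That Cd86 call ended under several settings. The adjusted p was 0.0996, 0.0779 and 0.0831 without control liver 1, 2 or 3, and 0.113 and 0.116 without sEV liver 2 or 3. With the slide row as a block, from sEV liver 1 alone, the change was -0.46. Under normexp background correction it was -0.10 (adjusted p = 0.338). The difference between this probe's change and that of the brightest Cd86 probe was -0.69 ± 0.26 and missed the threshold (limma adjusted p over 9319 probe pairs = 0.228).

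Cd40 could not be tested. Its single probe (chr2:164896301-164896360, plus strand) was well above background on 0 of the 6 arrays, with -5.40, -5.37 and -5.85 in sEV livers and -6.18, -6.07 and -6.19 in control livers, and no fold is given. Cd38 (chr5:44302865-44302924, plus strand) read 0.16, 0.41 and 0.28 in sEV livers, against -0.03, 0.43 and 0.23 in control livers. Control liver 1 was the lowest, and the groups overlapped. The log2 fold change was 0.07 ± 0.14 (95% interval -0.26 to 0.41; limma adjusted p = 0.745).

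The remaining members act inside the cell. Irf8, an IRF needed for macrophage and dendritic cell development, came nearest to the threshold. Its probe A_52_P354823 read 1.62, 1.17 and 1.30 in sEV livers, against 1.02, 0.98 and 0.91 in control livers. Every sEV liver was above every control liver, as was the case for 22.2% of all genes tested. The log2 fold change was 0.39 ± 0.13 (95% interval 0.08 to 0.71), with a limma p of 0.0208 before adjustment and 0.0868 after, and an exact two-sided permutation p of 0.1. It was 0.65 with the slide row as a block, from sEV liver 1 alone. The second Irf8 probe, 13315 bases away, gave 0.12 (adjusted p = 0.621). The difference between these changes was -0.27 (adjusted p = 0.379). Marcks, an actin-binding substrate of protein kinase C, read 1.88, 2.03 and 1.67 in sEV livers and 2.02, 2.29 and 1.91 in control livers on A_51_P352968 (chr10:36854776-36854835, minus strand). The groups overlapped, and the log2 fold change was -0.21 ± 0.14 (95% interval -0.55 to 0.13; limma adjusted p = 0.335). Its second probe gave -0.10 (adjusted p = 0.733).

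Irf5, an IRF that drives inflammatory cytokine genes in macrophages, gave different changes on its probes. On the RefSeq probe A_51_P346668, sEV livers had -0.25, 0.24 and 0.03 and control livers -0.28, -0.12 and -0.36. Liver sEV 1 lay among the controls and the other sEV livers above them, and the log2 fold change was 0.26 ± 0.14 (95% interval -0.09 to 0.60; limma adjusted p = 0.260). With the slide row as a block, which leaves sEV liver 1 alone, this change was 0.000564. On the cDNA probe A_55_P2739057, sEV livers had -1.62, -1.10 and -1.21 and control livers 0.02, 0.32 and -0.07. Every sEV liver was more than 1 unit below the lowest control liver. It fell by 1.40 ± 0.17 on the log2 scale, 2.63-fold (95% interval -1.81 to -0.98; limma adjusted p over probes = 0.00662; exact two-sided permutation p = 0.1).

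The difference between the changes of these Irf5 probes, cDNA probe minus RefSeq probe, was -1.66 ± 0.08 (95% interval -1.86 to -1.45; limma adjusted p over 9319 probe pairs = 0.00327). This test was added after the values were seen. It called 0.966% of all pairs, 0.547% with the same sign, and 53 pairs differed by more in size. It missed the threshold with the replicate number as a block (adjusted p = 0.0646), where the cDNA probe's own fall passed (adjusted p = 0.0169). With the slide row as a block, from sEV liver 1 alone, the difference was -1.71 and the cDNA probe's own change was -1.71. Averaging the Irf5 probes gave -0.57 (adjusted p = 0.0563) for the gene, against 0.26 on the brightest probe.

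In the RefSeq gene table, Tnpo3, an import receptor that carries splicing factors into the nucleus, lies on the opposite strand, and its span overlaps the end of Irf5. It was looked at after the Irf5 values were seen. None of its 4 probes passed, with log2 fold changes of 0.06 to 0.34 and a lowest limma adjusted p of 0.0569. Which transcript the cDNA probe measured was not tested.

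**Figure D2:**
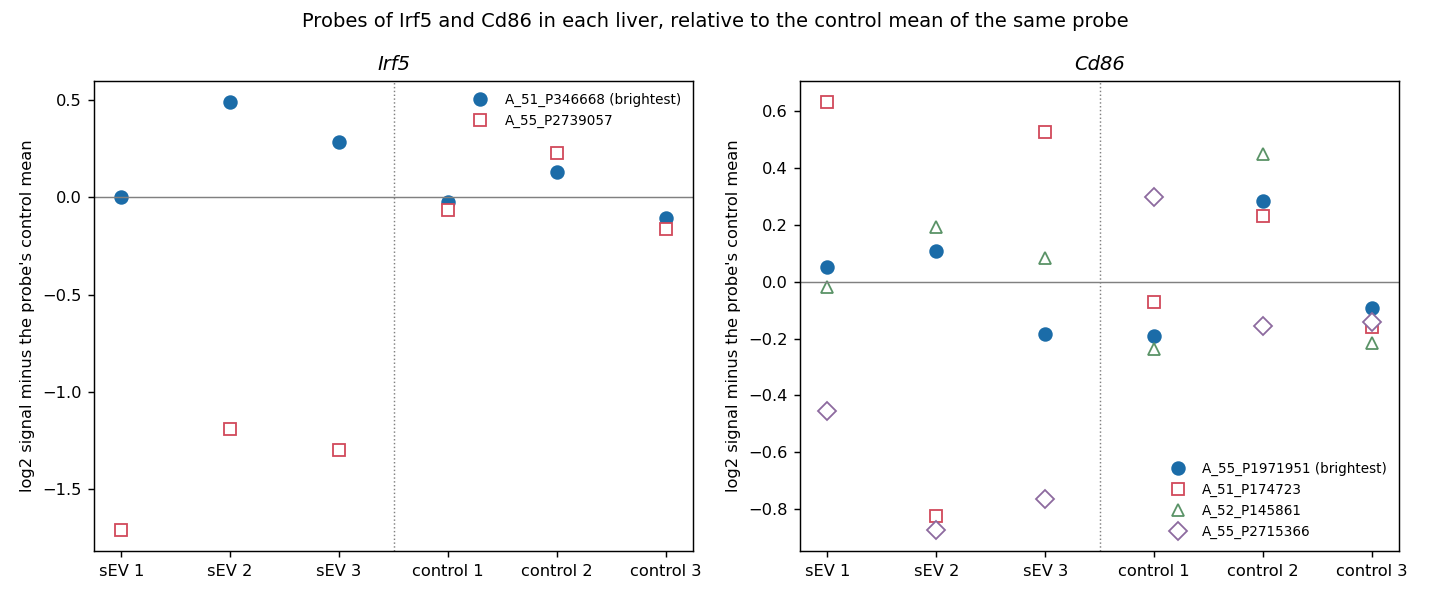
Log2 signal minus the mean of the control livers for the same probe (vertical axis) in each liver, sEV livers left of control livers, for the 2 Irf5 probes (left panel) and the 4 Cd86 probes (right panel), 1 point per liver and probe. The sEV livers average -1.40 on the Irf5 cDNA probe (red squares) and 0.26 on the Irf5 RefSeq probe, and -0.70 on the Cd86 Ensembl transcript probe (diamonds).

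**Figure D3:**
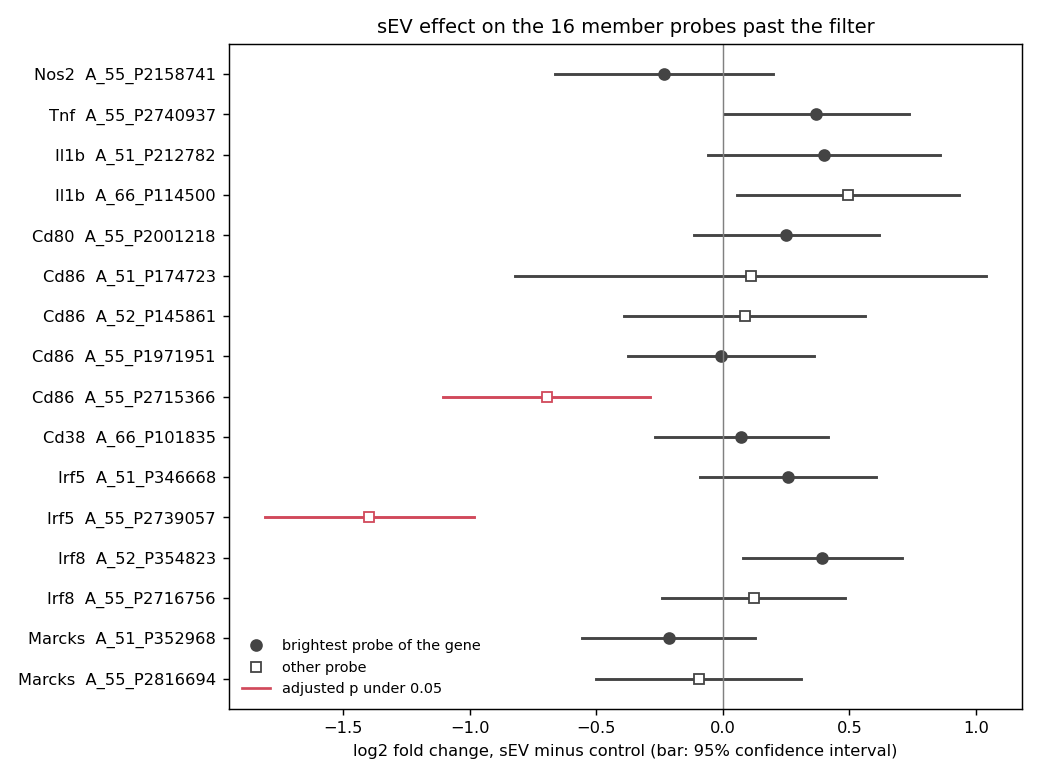
Log2 fold change, sEV minus control (horizontal axis), of the 16 member probes past the filter, with 95% intervals from the limma fit over probes as bars. Circles are the brightest probe of a gene, squares its other probes, and red marks an adjusted p under 0.05. The Irf5 cDNA probe lies farthest from 0, at -1.40, and the Cd86 Ensembl transcript probe is the other red one, at -0.70.

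Patterns over the 6 livers were also set beside those of other genes, as a description over arrays that share group, slide and scaling. The genes with the highest Pearson r to Irf8, among 13491 compared, were Slc31a2 (0.999), Gbp4 (0.996) and Ldb1 (0.989). For Tnf they were Atf4 (0.991), Anxa7 (0.988) and Tst (0.988). For Il1b they were Laptm4a (0.994), Anapc11 (0.992) and Vmo1 (0.992). None of these genes passed the threshold, the lowest adjusted p being 0.0513 for Gbp4.

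The genes around the members were read through 11 lists, over which 33 of 125 measured genes rose and 7 fell. These counts stand beside 8.82% of all genes called higher and 8.11% lower. The share called was lowest in the M2-type list (6.67%), the TNF axis (10%), the Marcks list (12.5%) and the NF-kappaB list (21.4%), and 16.9% of all genes were called. No list was tested against another or against the rest. Of 20 measured genes that sense LPS and interferon gamma, 6 rose and 1 fell (median log2 fold change 0.32). Irak3, which restrains Toll-like receptor signalling, had -2.39, -2.11 and -1.36 in sEV livers, against -4.60, -4.56 and -4.45 in control livers. It rose by 2.58 ± 0.26 (limma adjusted p = 0.00342), and by 1.21 under normexp background correction. Its signal cleared background on just 1 of the control arrays, so the size of the rise is uncertain. Cd14, the LPS co-receptor, rose by 1.92 ± 0.31 (limma adjusted p = 0.0131), and without control liver 1 its adjusted p was 0.0509. Of 14 NF-kappaB genes 3 rose and none fell (median 0.23). The 3, Bcl3, Tnfaip3 and Nfkbiz, kept their calls in 1, 1 and 2 of the 6 fits with a liver left out. Of 12 other IRF genes and partners, 3 rose and 1 fell (median 0.48). Irf1, an interferon-induced activator, had 4.11, 3.82 and 3.75 in sEV livers, against 2.89, 3.03 and 3.18 in control livers, and rose by 0.86 ± 0.13 (limma adjusted p = 0.0117). Cebpb, a factor of the acute-phase response, rose by 0.68 ± 0.09.

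Close partners of the cytokine members were read next. Of 10 genes of the TNF axis 1 rose and none fell (median 0.24). Of 9 genes of the interleukin 1 axis, 5 rose and none fell (median 0.50). Il1r1, the signalling receptor of Il1b, had 3.22, 2.93 and 3.78 in sEV livers, against 1.35, 1.30 and 1.68 in control livers. It rose by 1.87 ± 0.23 (limma adjusted p = 0.00618), and Il18bp, which neutralises interleukin 18, rose by 0.63 ± 0.09. Around the B7 ligands and Cd40 only 4 of 10 partners were measured, and 1 fell (median -0.04). Cd28, Ctla4, Icosl, Cd40lg, Pdcd1lg2 and Pdcd1 did not pass the filter.

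Around Nos2, 5 of 10 nitric oxide and arginine genes rose and 2 fell (median 0.58). The 2 that fell were named after their values were seen. They were Slc7a1 (-0.55 ± 0.10, limma adjusted p = 0.0187) and Ddah2 (-0.69 ± 0.14, limma adjusted p = 0.0231). Slc7a2, a transporter that brings arginine into the cell, had 1.93, 1.92 and 1.75 in sEV livers, against 0.53, 0.97 and 0.63 in control livers. It rose by 1.16 ± 0.14 (limma adjusted p = 0.00538). The urea cycle enzymes Ass1 and Asl, which also rebuild arginine, rose by 0.80 ± 0.11 and 1.14 ± 0.18, and Asl had 0.54 (adjusted p = 0.305) as the mean of its probes. Around Cd38, 3 of 10 NAD genes rose and 1 fell (median 0.27). Nnmt, which methylates nicotinamide, rose by 2.42 ± 0.42 (limma adjusted p = 0.0173), and without sEV liver 3 its adjusted p was 0.0504. Around Marcks, 1 of 8 genes rose and none fell (median -0.03). That gene, the protein kinase C isoform Prkcd, rose by 0.63 ± 0.08 (limma adjusted p = 0.00733).

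Of 23 other M1-type genes, 13 were measured, and 5 rose and 1 fell (median 0.18). Log2 fold changes were positive for 9 of the 13. The 1 that fell, named after its values were seen, was Cxcl10 (-1.42 ± 0.35, limma adjusted p = 0.0416). Fpr2, a formyl peptide receptor, rose by 0.75 ± 0.13, and without control liver 1 its adjusted p was 0.0535. The other 10 did not pass the filter, among them Il6, Il12a, Il12b, Il23a, Ptgs2 and Ido1. Of 15 measured M2-type genes 1 rose and none fell (median -0.04), and that was the chitinase-like Chil3 (2.51 ± 0.43, limma adjusted p = 0.0161). The M2-type list did not hold Arg1, which was counted with the nitric oxide and arginine genes. Arg1 rose by 0.59 ± 0.11 (limma adjusted p = 0.0214). With the slide row as a block the changes are sEV liver 1 alone against the control livers. They were 2.15 for Irak3, 1.08 for Irf1, 1.22 for Slc7a2 and 0.72 for Prkcd. Cd14 had 1.44, Il1r1 1.77, Cebpb 0.66, Ass1 0.74, Asl 0.99 and Il18bp 0.56. Nnmt had 2.14, Fpr2 0.78 and Chil3 2.22. With 1 treated liver, whether these genes passed is not read.

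**Figure D4:**
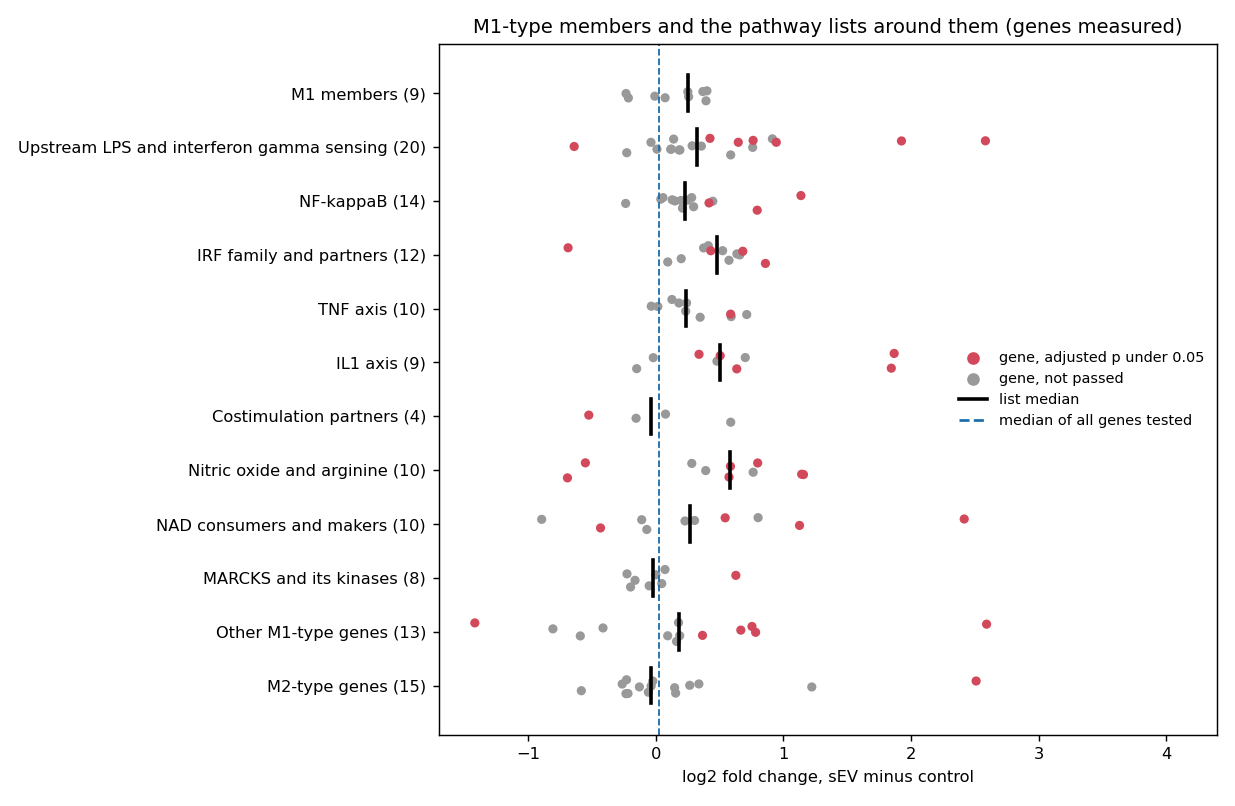
Log2 fold change, sEV minus control (horizontal axis), of each measured gene in the M1-type members and in 11 lists around them, with list medians as vertical bars and the median of all genes as a dashed line. Red points passed the limma threshold. None of the 9 members is red, and the median is 0.25 for the members against 0.02 for all genes.

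Markers of the cells that could carry the members were read as well, and their part in the members' values was not tested. Of 15 Kupffer cell markers 7 rose and none fell, and their mean level was 3.03 to 3.20 in sEV livers against 2.43 to 2.87 in control livers. Of 5 common leukocyte markers 2 rose, with mean levels of 0.10 to 0.29 in sEV livers and -0.19 to -0.06 in control livers. Over all genes tested, 8.82% were called higher and 8.11% lower. Of 10 monocyte markers 4 rose and 3 fell, with mean levels of 0.45 to 0.85 in sEV livers and 0.42 to 0.53 in control livers. Of 10 measured dendritic cell markers 3 rose and none fell, with -0.22 to 0.07 in sEV livers against -0.74 to -0.44 in control livers. The 3 were H2-Ab1, H2-Eb1 and Cd74, and the other 7 did not pass. Those 7 had log2 fold changes of -0.62 for Ccr7, 0.01 for Siglech, 0.10 for Clec9a, 0.14 for Zbtb46, 0.48 for Itgax, 0.50 for Flt3 and 1.29 for Cd209a. Of 11 neutrophil markers 5 rose and none fell, with 1.21 to 1.78 in sEV livers against 0.33 to 0.80 in control livers. The 5 were S100a8, S100a9, Ngp, Mpo and Elane. The other 6 did not pass. Their log2 fold changes were -0.90 for Csf3r, -0.08 for Ly6g, 0.57 for Retnlg, 0.84 for Cxcr2, 1.01 for Mmp8 and 1.16 for Camp. Dendritic cells also carry Cd80, Cd86 and Cd40, and neutrophils also make Il1b. Of 5 measured B cell markers none rose and 3 fell, with -3.71 to -2.94 in sEV livers against -2.79 to -2.46 in control livers. The dendritic cell markers Xcr1 and Irf4 and the B cell markers Cd79a, Fcer2a and Blk did not pass the filter.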

How the data were processed

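Liver RNA of 3 sEV-treated and 3 control nude mice was measured on Agilent arrays in 1 colour, Cy3. The scanner software was Agilent Feature Extraction 10.7.1.1, as the submitters' processing notes name it. The deposited intensity of a spot had its background subtracted and was not scaled between arrays, per the file headers. The authors also deposited a table of log2 values (56745 lines, every column median 4.50) that correlated at 0.9995 or more, across probes, with log2 of the spot intensities. Its scaling is not stated in the labels. It served as an alternative.

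Control spots and outlier spots (91 to 171 per array) were left out, no other spot was saturated (0), and spots of a probe were averaged. Log2 signal minus the array's 75th percentile was tested with limma 3.58.1 in R 4.3.3 (lmFit, eBayes), sEV minus control, Benjamini-Hochberg threshold 0.05. A probe entered the fit if at least 3 of the 6 arrays had it well above background, and the brightest probe stood for a gene, leaving 19447 genes. All 28766 probes past the filter were fitted separately, as were 9319 probe pairs. Genes carry the names of the array's design, and 17 of the 22 member probes matched RefSeq by accession. The fit was tested on simulated data. The number of arrays limits the precision: the members' 95% intervals reach 0.31 to 0.46 to each side of the log2 fold change.

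All probes of the members are reported. From each list around them up to 3 called genes by moderated t, or the 2 largest changes where none passed, could be named. The value of 1 such gene is not reported here. The members and lists were chosen with earlier results of these data known. Alternatives covered background correction, scaling, the filter, the variance model, array weights, the replicate number and slide row as blocks, each liver left out, and the mean of a gene's probes.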

Additional observations from a re-analysis of the deposited data

How the results depend on the processing

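The number of called members was 0 under every alternative run, and the Irf5 cDNA probe passed under every one, with -1.71 to -1.08. The 2 called member probes became 1 with normexp, with no filter, with detection on all 6 arrays and with an intensity trend. They were 1 to 2 with a liver left out. Counts of all called genes (3294) were 801 with no filter, 721 with the row block, 608 within row 1 and 1329 to 2761 with a liver left out. Median scaling called 2693, 40.5% of them higher against 52.1%. Called genes over all 22 lists, those of cell type markers included (77), were 19, 14, 17 and 33 to 72 under those 4 changes. The member median (0.25) was 0.053 with the row block and within row 1, 0.073 with the mean of all probes and 0.14 to 0.30 with a liver left out. Of 51 named called genes, 24 passed with each liver left out in turn.

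Deviations of same-numbered livers correlated at 0.02, 0.16 and 0.02, and those of differently numbered livers at -0.10 to 0.08. With 3 livers per group these values cannot decide whether the numbers pair the livers. The replicate block called 2176 genes, 0 members and 3 member probes.

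Changes near 0 turned sign. Cd86, on its brightest probe A_55_P1971951, was 0.0054 with quantile normalization, 0.0046 with the value table, 0.021 (gene fit) and 0.023 (probe fit) with array weights, 0.053 with the row block and within row 1, and -0.10 to 0.13 with a liver left out. Its probe A_52_P145861 was -0.017 with the row block and within row 1, and -0.031 to 0.31 with a liver left out. Its probe A_51_P174723 was -0.15 to 0.58 with a liver left out. Cd38 was -0.056 with the row block and within row 1 and -0.047 to 0.18 with a liver left out. Marcks A_55_P2816694 was 0.061 with array weights and -0.28 to 0.026 with a liver left out, and Irf8 A_55_P2716756 -0.022 to 0.24. Irf5 was -0.57 with the mean of all probes, which holds the cDNA probe. Alb and Gapdh were -0.16 and -0.12 with quantile normalization, -0.13 and -0.12 with the value table, and -0.14 and -0.30 with the row block and within row 1. With a liver left out Actb was -0.13 to 0.017 and Sox9 -0.029 to 0.39. The cause was not tested in any of these.

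With 3 livers per group, the members' estimates carry 95% intervals of 0.31 to 0.46 log2 units to each side. Irf8, at 0.39 ± 0.13, had the lowest adjusted p of the members (0.0868) and did not reach the threshold. Cxcl16, picked from the same fit after its values were seen, passed at 0.37 ± 0.08 (limma adjusted p = 0.0300), with a smaller standard error. Why Irf8 missed the threshold was not tested. Row 2 of the slide held sEV livers only, so no value within row 2 exists.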

Other observations

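Other liver cell markers were read in the same fit, which called 8.82% of all genes higher and 8.11% lower. Of 8 stellate cell markers none rose and 4 fell (median log2 fold change -0.57). Among them the collagens Col1a1 and Col3a1 fell by 2.05 and 1.89. Of 8 sinusoidal endothelial markers none passed (median -0.22), nor did any of 5 cholangiocyte markers (median -0.04). Of 5 measured T and NK cell markers 2 rose and 1 fell. Of 6 hepatocyte markers 3 rose and none fell (median 0.35), including Cps1, the first enzyme of the urea cycle (0.84), and Tat, which breaks down tyrosine (1.19). Within the monocyte markers Cx3cr1, the fractalkine receptor, fell by 2.17 ± 0.17 while S100a4, a calcium-binding protein, rose by 1.07 ± 0.17. Within the dendritic cell markers the class II genes H2-Eb1, Cd74 and H2-Ab1 rose by 1.51, 1.39 and 1.29. Elane, the neutrophil elastase gene, rose by 1.31. With the slide row as a block, which leaves sEV liver 1 alone, Cps1 was 0.745, Tat 1.35, Cx3cr1 -2.42 and S100a4 0.69. Col1a1 was -2.07, Col3a1 -1.78, H2-Eb1 1.38, Cd74 1.28, H2-Ab1 1.32 and Elane 1.11. With 1 treated liver, whether these genes passed is not read.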
